A study of Homo sapiens with 3 samples.

Results

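The histone genes of MDA-MB-231 are described here, a long-established breast cancer cell line of mesenchymal-like character that usually lacks oestrogen receptor alpha (ERα). Members were all probe sets of the array paired with exactly 1 gene symbol that named a linker histone H1, a core histone H2A, H2B, H3 or H4, or a macroH2A. The rule gave 86 probe sets and 61 symbols, of 41097 probe sets with 1 symbol and 19775 genes in all. Of these, 45 genes (51 probe sets) carried the symbols of the replication-dependent gene clusters (H1-1 to H1-6, H2AC, H2BC, H3C and H4C) and are called clustered below. The remaining 16 genes (35 probe sets) are called variant genes. The rule also took in 4 symbols of pseudogenes (H1-9P, H2AC5P, H2BW4P and H4C10P) and H1-10-AS1, a non-coding RNA antisense to H1-10, which was counted with the variant genes.

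All cells spent 4 h in 10% charcoal-stripped serum, from which steroids are largely removed, before 3 h with 1 agent. The groups were 0.1% ethanol as vehicle, 1 µM estradiol, and 1 µM ERα17p, a peptide derived from ERα in a solvent the sources used here do not state. Each group was 1 Affymetrix HG-U133 Plus 2 array, so there are no replicates, no test and no p-value, and every difference below describes 3 arrays. Deposited log2 values had been centred for each probe set on a reference that is not described, so 0 is that reference, and a value gives no expression level. For the same reason the line's identity could not be checked by marker levels. Markers of blood cells (3 measured), fibroblasts and endothelium (4) and luminal epithelium (8) differed from vehicle by medians between -0.05 and 0.26. Single markers differed more: luminal ones ran from -0.84 to 0.78 with estradiol and from -0.87 to 0.43 with ERα17p. Blood cell markers reached 0.78 with ERα17p. Markers of mesenchymal-like lines (5) had medians of 0.35 and 0.58, with ranges of -0.23 to 1.84 and -0.22 to 2.08. A gene's difference is the median over its probe sets, and a difference of at least 1.5-fold (0.58 in log2) was counted as lower or higher. In bulk RNA, fewer cells in a state and less RNA per cell cannot be told apart.

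Histones package DNA into nucleosomes, in which DNA wraps around a core of H2A, H2B, H3 and H4 while H1 binds the linker. Clustered genes are transcribed mainly in S phase, and their main transcripts end in a conserved stem-loop in place of a poly(A) tail. Forming that end needs the stem-loop binding protein SLBP and the U7 particle, and NPAT is a coactivator of their transcription. Some clustered genes, H1-2, H2AC6, H2BC5, H2BC12 and H2BC21 among them, are also known to give polyadenylated transcripts. Variant genes lie outside this programme for the most part: they have introns or poly(A) tails and are made through the cell cycle, as are H3-3A, H2AZ1 and MACROH2A1. Which transcript forms each probe set reads is not known here.

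The arrays differed in added and control RNAs. Labelling spikes were 2.03 and 2.04 higher on the estradiol and ERα17p arrays than on the vehicle array (27 probe sets), and hybridisation spikes differed from it by -0.74 and -0.93 (18 probe sets). Values spread most with vehicle (SD 0.494), and less with estradiol (0.260) and ERα17p (0.241). Between the treated arrays the labelling spikes differed by 0.00, while ERα17p exceeded estradiol by 0.53 in 18S ribosomal RNA (3 probe sets). The excess of 3' over 5' signal differed in the same direction by 0.58 for ACTB and by 0.09 for GAPDH. Their part in the histone differences was not tested.

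The ERα17p array held the lowest value of most clustered genes, and the H2B genes stood lowest there among the clustered families. Of the 45 clustered genes, 24 (53.3%) were lowest on the ERα17p array, against 30.9% of all genes, and 27 (60%) were highest on the vehicle array, against 39.1% of all genes. Over all genes, 40.3% were lowest on the vehicle array and 28.8% on the estradiol array, and 32.5% were highest with estradiol and 28.5% with ERα17p. Among the 14 clustered H2B genes, 11 were lowest on the ERα17p array and 11 highest on the vehicle array, with H2BC17, tied at 0.00 on the vehicle and estradiol arrays, counted as highest on the vehicle array. The median H2B value was 0.31 with vehicle, -0.06 with estradiol and -0.45 with ERα17p. Of the 6 clustered H1 genes 3 were lowest with estradiol and 3 with ERα17p, and of the 7 H3 genes 4 and 2. The 9 H4 genes had no such order as H2B, with 4 lowest and 4 highest on the ERα17p array. Of the 16 variant genes, 6 were lowest with vehicle, 4 with estradiol and 6 with ERα17p.

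**Figure D1:**
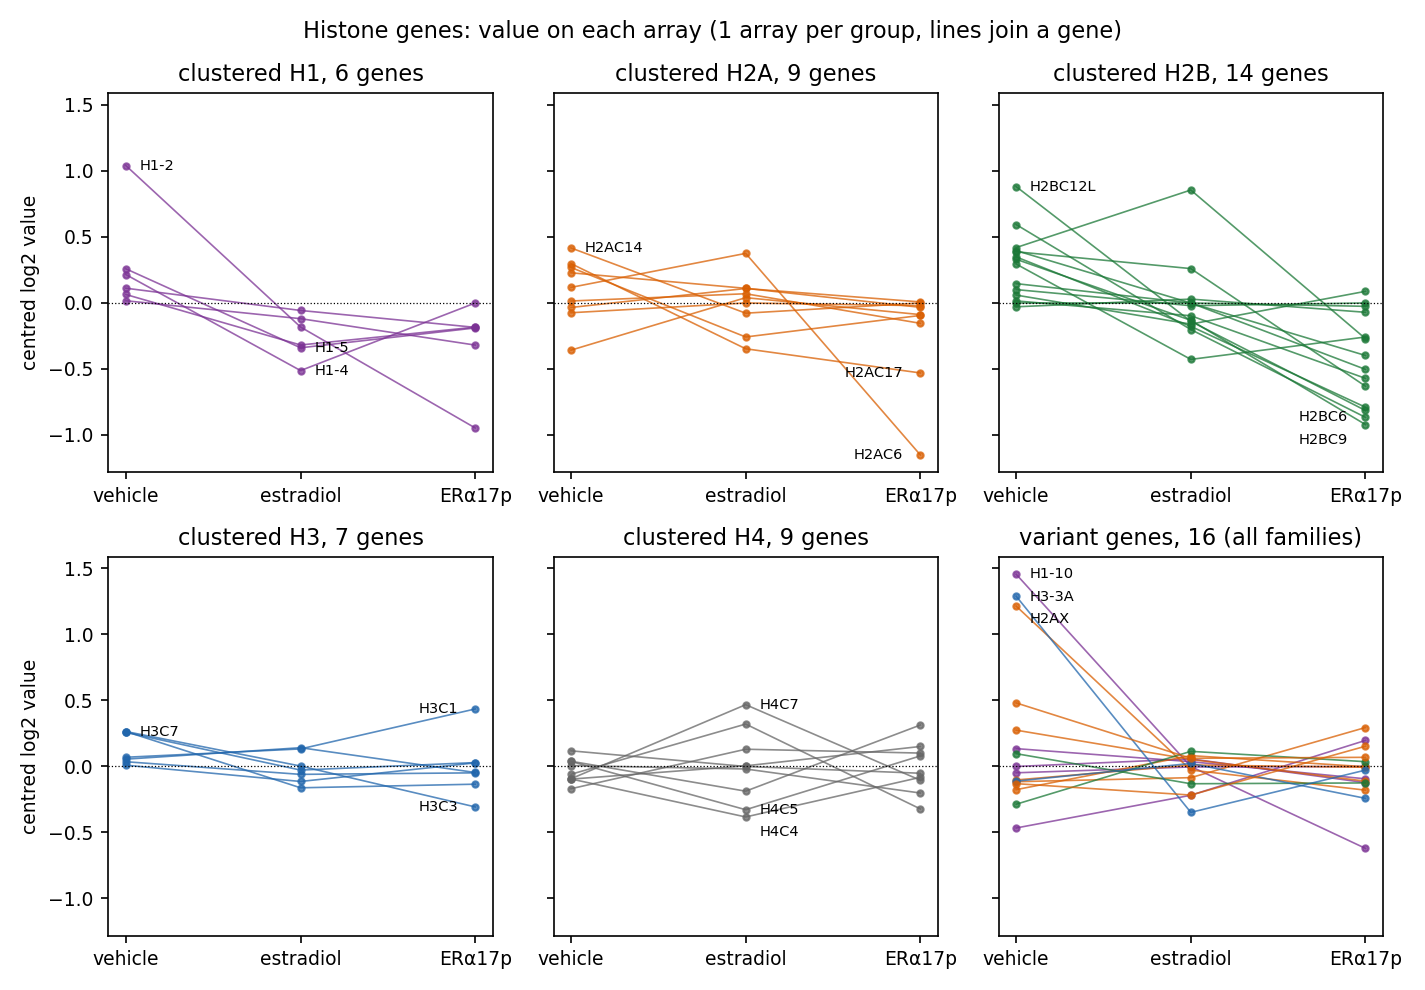
Centred log2 value (vertical axis) of each histone gene on the vehicle, estradiol and ERα17p arrays (horizontal axis), with 1 line per gene, in panels by clustered family and for the 16 variant genes, coloured by family (H1 purple, H2A orange, H2B green, H3 blue, H4 grey). Clustered H2B genes run downward to the ERα17p array, H2AC6 drops to -1.15 there, and H1-10, H3-3A and H2AX stand at 1.46, 1.29 and 1.22 on the vehicle array alone.

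Set directly against each other, the treated arrays differed in 9 of 45 clustered genes by at least 1.5-fold, all lower with ERα17p than with estradiol. That is 20% of them, against 2.04% of all genes lower and 1.29% higher in this comparison. None of the 45 was at least 1.5-fold higher. The median over clustered genes was -0.10, with 28 below 0 and 17 above, against -0.01 over all genes; the low members were therefore a minority of the class. Of the 16 variant genes, 1 was lower (6.25%) and 0 higher, with a median of -0.05. The 18S ribosomal RNA (3 probe sets) was 0.53 higher on the ERα17p array, and its relation to these values was not tested.

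H2AC6, an H2A gene of the main cluster on chromosome 6, was farthest apart. Its single probe set read 0.12 with vehicle, 0.38 with estradiol and -1.15 with ERα17p. The difference of ERα17p from estradiol was -1.53 (2.88-fold lower), and the vehicle and estradiol arrays were the closer pair, 0.26 apart. H2BC21, an H2B gene on chromosome 1, showed the same order, at 0.42, 0.86 and -0.27. It was 1.13 lower in log2 with ERα17p than with estradiol (2.18-fold). In the deposited values 2 of 45 clustered genes, H2AC6 and H2BC21, were at least 2-fold lower, against 0.212% of all genes, and 0 were 2-fold higher, against 0.0354%. These sizes depend on the scaling: after quantile normalisation of the deposited values H2AC6 differed by -2.43 between the treated arrays and by -2.06 from vehicle, and H2BC21, H1-2, H2BC9, H2BC5, H2BC6, H2BC12L and H2BC12 lay between -1.48 and -1.06 in the direct comparison.

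The other low members were mostly H2B genes. H2BC5 read 0.39, 0.26 and -0.63 with vehicle, estradiol and ERα17p, a difference of -0.89 between the treated arrays, and its 2 probe sets gave -1.02 and -0.76. H2BC9 read 0.33, -0.13 and -0.92, a difference of -0.79. H2BC12L, an H2B gene on chromosome 21, differed by -0.68, H2BC6 by -0.67 and H2BC12 by -0.61; in all 3 the vehicle array was highest and the ERα17p array lowest. In total 6 of 14 clustered H2B genes were lower, with a median of -0.49, against 3 of the other 31 clustered genes, with a median of -0.03. The H2B genes above 0 were H2BC13 (0.25), H2BC14 (0.17) and H2BC1 (0.02), the last encoding a testis-specific H2B.

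Of the 6 clustered H1 genes, H1-2 was the 1 past 1.5-fold. It encodes a somatic linker histone and read 1.04, -0.18 and -0.95 with vehicle, estradiol and ERα17p. It was 0.76 lower in log2 with ERα17p than with estradiol, while H1-4 was 0.51 higher and the median of the 6 H1 genes was 0.00. The 7 clustered H3 genes lay between -0.31 (H3C3) and 0.30 (H3C1), with a median of 0.03 and none past 1.5-fold. Of 9 H4 genes 1 was past 1.5-fold, H4C8 at -0.64, followed by H4C7 at -0.57. H4C1, at 0.50, was the highest of the H4 genes, so members of that family differed in both directions.

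**Figure D2:**
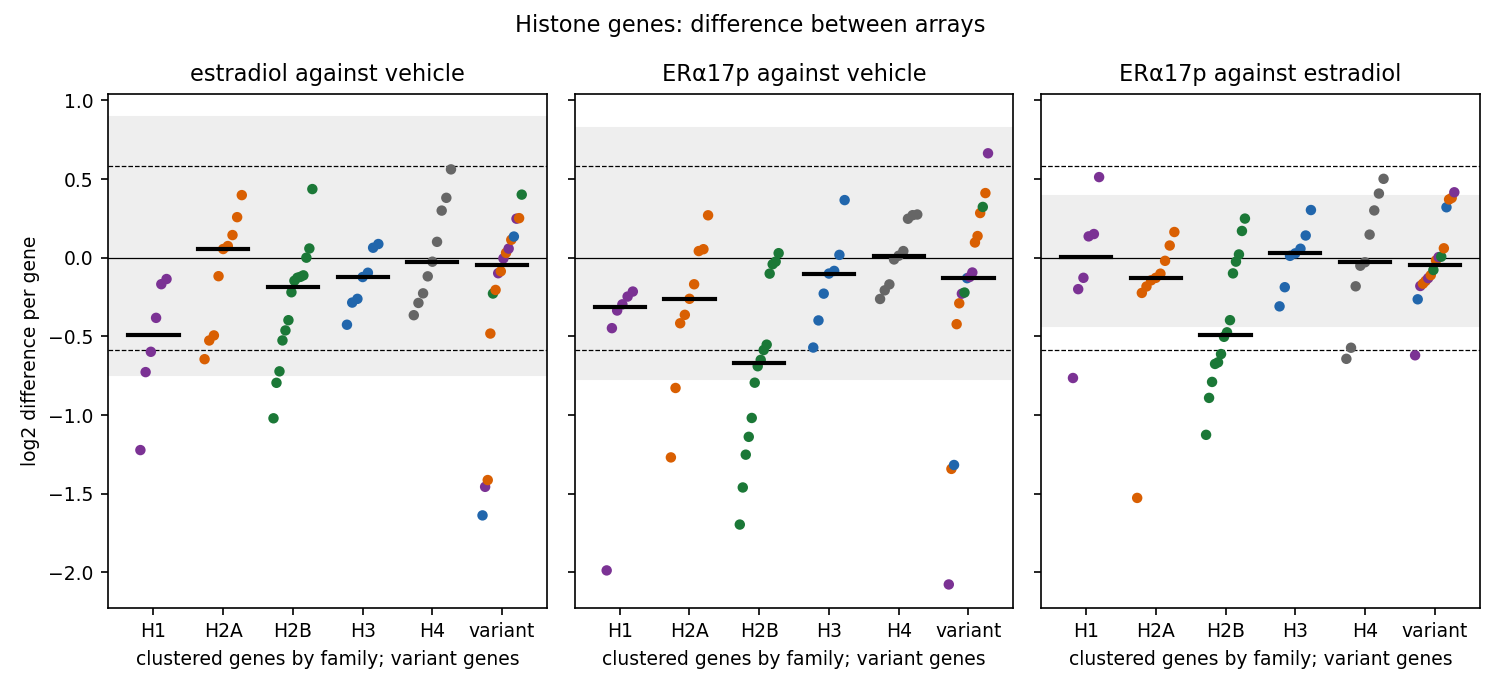
Log2 difference per gene (vertical axis) between arrays in the 3 comparisons, for clustered genes by family and for variant genes (horizontal axis); points are genes, coloured by family as in the value plot, thick bars are medians, dashed lines mark 1.5-fold, and the grey band spans the percentiles 5 to 95 of all 19775 genes. Clustered H2B has the lowest median of the clustered families in both comparisons of ERα17p, at -0.67 and -0.49, while H4 medians are 0.01 and -0.03.

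The promoters of the lowest H2A and H2B genes, and of H1-2 and H2AZ1 for comparison, are shown because 6 H2B genes and the H2A gene H2AC6 were among the low members. RefSeq held a promoter for 53 of the 61 members (GRCh38.p14). The lines give the 150 bases before the transcription start, 5′ to 3′ on the gene's strand. Capitals mark 4 motifs on either strand: the octamer ATTTGCAT bound by POU2F1, the box CCAAT, the box TATAAA and the H1 box AAACACAAA. The H1 box does not occur in the lines shown. Over the 250 bases before the start it was in 3 of 6 clustered H1 promoters, H1-2 among them, and in 0.53% of all promoters. The windows are chr6:26124022-26124171 (+) for H2AC6, chr1:149886683-149886832 (-) for H2BC21, chr6:26157971-26158120 (+) for H2BC5, chr6:26056471-26056620 (-) for H1-2 and chr4:99950276-99950425 (-) for H2AZ1.
H2AC6: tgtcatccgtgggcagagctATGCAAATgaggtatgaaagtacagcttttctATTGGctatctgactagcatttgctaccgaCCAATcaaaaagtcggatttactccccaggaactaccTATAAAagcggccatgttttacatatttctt
H2BC21: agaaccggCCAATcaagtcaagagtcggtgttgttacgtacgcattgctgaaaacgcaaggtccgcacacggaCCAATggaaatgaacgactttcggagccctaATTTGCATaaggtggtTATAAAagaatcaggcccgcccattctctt
H2BC5: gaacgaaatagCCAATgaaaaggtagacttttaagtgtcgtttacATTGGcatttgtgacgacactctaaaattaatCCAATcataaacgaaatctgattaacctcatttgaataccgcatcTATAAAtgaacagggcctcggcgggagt
H1-2: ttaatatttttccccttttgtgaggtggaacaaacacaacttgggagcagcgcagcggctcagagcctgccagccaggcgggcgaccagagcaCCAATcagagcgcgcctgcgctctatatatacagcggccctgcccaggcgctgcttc
H2AZ1: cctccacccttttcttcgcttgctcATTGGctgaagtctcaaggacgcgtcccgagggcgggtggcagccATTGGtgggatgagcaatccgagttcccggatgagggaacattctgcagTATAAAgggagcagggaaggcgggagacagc

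The octamer was found in H2A and H2B promoters, in low members and in others. In the 250 bases before the start it was present in 6 of 8 clustered H2A promoters and 10 of 13 clustered H2B promoters, in 0 of the 6 H1, 6 H3 and 7 H4 promoters, and in 0 of 13 variant promoters, against 1.63% of 35097 promoters of the same length. Within clustered H2A and H2B genes it was present in 5 of 6 promoters of genes at least 1.5-fold lower with ERα17p than with estradiol and in 11 of 15 of the others. H2BC5, which was low, had no octamer match, and H2BC17, which differed by -0.03, had one. CCAAT was in all 21 of these H2A and H2B promoters, and in 32.0% of all promoters. TATAAA was in 27 of 40 clustered promoters (67.5%) and 10.7% of all. These are matches of letters, and binding was not measured.

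H2AC6 and H2BC4 are divergent neighbours, with starts 246 bases apart, and 1 octamer at chr6:26124042-26124049 lies in the promoter windows of both. H2BC4 read 0.15, 0.00 and -0.50 with vehicle, estradiol and ERα17p, so both genes were lowest with ERα17p, by -1.53 for H2AC6 and -0.50 for H2BC4 against estradiol. Other measured H2A and H2B genes sharing an intergenic space differed little there: H2AC14 and H2BC14 by 0.08 and 0.17, H2AC15 and H2BC15 both by -0.10, and H2AC17 and H2BC17 by -0.18 and -0.03.

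Probe sets whose names end in _s_at or _x_at can match several transcripts, and clustered histone genes are nearly identical within a family, so the low values were split by this property. A name without these suffixes does not make a probe set specific to 1 gene. Some such probe sets are listed for several histone symbols, as described below. In the direct comparison, 8 of 13 clustered probe sets with these suffixes were at least 1.5-fold lower (61.5%), with a median of -0.68, against 2 of 38 without (5.26%), with a median of -0.07. Over all single-symbol probe sets the shares were 2.76% with and 3.51% without the suffixes. Within H2B, all 6 probe sets with a suffix were lower (median -0.77), against 1 of 9 without (H2BC12, median -0.10). Among clustered probe sets outside H2B, 2 of 7 with a suffix were lower (median -0.03), against 1 of 29 without (H1-2, median -0.05). The difference in medians thus lay within H2B. Outside H2B the share lower was still larger with a suffix (28.6%, the probe sets of H2AC6 at -1.53 and H4C8 at -0.97) than without (3.45%). Of the variant probe sets, 1 of 14 with and 1 of 21 without a suffix were lower in the direct comparison. Against vehicle, 5 of 14 with and 2 of 21 without a suffix were lower, both with estradiol and with ERα17p. Over all single-symbol probe sets 13.5% and 10.5% were lower with estradiol, and 12.7% and 10.2% with ERα17p. Higher were 1 of 14 and 1 of 21 with estradiol, and 1 of 14 and 2 of 21 with ERα17p. Between 11.7% and 16.9% of all single-symbol probe sets were higher in these comparisons. Medians of the variant probe sets were -0.25 and 0.00 for estradiol and -0.42 and -0.12 for ERα17p.

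A gene with both kinds of probe set gives a closer comparison, and among the clustered genes these were H4C8 and H2AC25. For H4C8 the suffixed probe set differed between the treated arrays by -0.97 and the other by -0.31. For H2AC25 the values were -0.36 and 0.10. In both genes the suffixed probe set was the lower one. For the genes carried by suffixed probe sets, H2AC6, H2BC21, H2BC5, H2BC6, H2BC9 and H2BC12L, the symbol therefore stands for that gene or a near copy of it. Of the 9 H2B genes whose probe set has no suffix, 4 were highest with vehicle, lower with estradiol and lowest with ERα17p. These were H2BC12 (0.35, -0.18 and -0.79), H2BC11 (0.40, 0.00 and -0.40), H2BC4 and H2BC3 (0.02, -0.10 and -0.57). H2BC1, H2BC13, H2BC14, H2BC15 and H2BC17 did not have this order. Over all genes 39.1% were highest on the vehicle array and 30.9% lowest on the ERα17p array, and the share with this full order was not counted. Among the 4, H2BC12 alone was past 1.5-fold between the treated arrays. With genes read only from probe sets without a suffix, 2 of 35 clustered genes were lower in the direct comparison, against 2.37% of all genes, and 6 of 35 with ERα17p against vehicle, against 8.63%. With estradiol against vehicle 5 of 35 were lower, against 8.43% of all genes. Quantile normalisation gave 7, 13 and 12 of 45 clustered genes lower for estradiol against vehicle, ERα17p against vehicle and ERα17p against estradiol, with 6.27%, 7.53% and 4.55% of all genes lower.

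**Figure D3:**
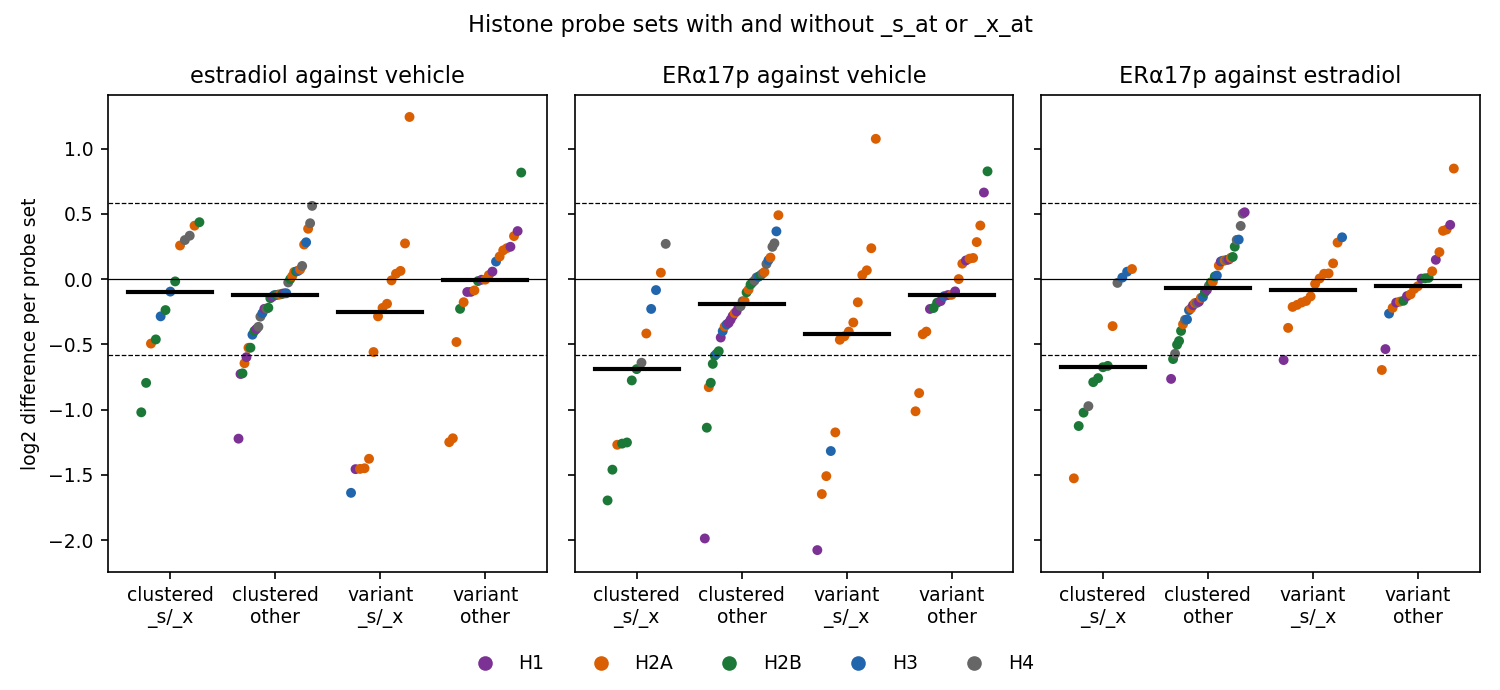
Log2 difference per probe set (vertical axis) in the 3 comparisons, for clustered and variant histone probe sets with _s_at or _x_at names and for all others (horizontal axis); points are probe sets coloured by family, thick bars are medians and dashed lines mark 1.5-fold. In ERα17p against estradiol the clustered suffixed probe sets have a median of -0.68 and the other clustered probe sets -0.07. Outside H2B these medians are -0.03 and -0.05, with 2 of 7 and 1 of 29 probe sets at least 1.5-fold lower.

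A further 20 probe sets were paired with several symbols, all of them clustered histones, and stood outside the rule. In ERα17p against estradiol their median was -0.29, with 5 of 20 at least 1.5-fold lower and 0 higher. Of single-symbol probe sets, 2.76% with a suffix and 3.51% without were lower. The low ones at -1.30, -0.92, -0.85 and -0.67 had no suffix, and that at -0.73 ended in _x_at. Among these 20 the low values thus did not follow the suffix. Against vehicle, 6 of the 20 were lower and 1 higher with estradiol, and 10 lower and 0 higher with ERα17p. There, 13.5% of single-symbol probe sets with a suffix and 10.5% without were lower with estradiol, and 12.7% and 10.2% with ERα17p. Between 11.7% and 16.9% of them were higher. The lowest of the 20 between the treated arrays, at -1.30, was a probe set listed for 10 H3C genes. It read 0.43 with vehicle, 0.40 with estradiol and -0.90 with ERα17p. The 3 probe sets listed for the same 5 H2B genes (H2BC4, H2BC6, H2BC7, H2BC8 and H2BC10) differed by -0.92, -0.73 and -0.21 between the treated arrays. From vehicle to estradiol they differed by 0.71, -0.96 and -0.91 in the same sequence, so they did not agree in direction there. This H3 probe set was low with ERα17p, although none of the 7 clustered H3 genes with probe sets of their own was past 1.5-fold.

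Against the vehicle array, 12 of 45 clustered genes were at least 1.5-fold lower with ERα17p (26.7%) and 0 higher, against 8.82% and 9.56% of all genes. The median was -0.25, and 0.00 over all genes. H2B again held most of them, with 9 of 14 lower and a median of -0.67. H1-2 was lowest at -1.99 (3.97-fold lower), followed by H2BC12L (-1.70, 3.24-fold), H2BC6 (-1.46, 2.75-fold), H2AC6 (-1.27), H2BC9 (-1.25), H2BC12 (-1.14) and H2BC5 (-1.02). H2AC17 (-0.83), H2BC11 (-0.79) and H2BC21 (-0.69) completed the 10 with the largest differences. At 2-fold, 7 were lower, against 2.48% of all genes, and 0 higher, against 3.34%. By probe set, 8 of 13 with a suffix and 6 of 38 without were 1.5-fold lower, against 12.7% and 10.2% of all probe sets.

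With estradiol, 7 of 45 clustered genes were at least 1.5-fold lower than on the vehicle array (15.6%) and 0 higher, against 8.42% and 10.6% of all genes. The median was -0.14. H1 genes had the lowest family median (-0.49): H1-2 was at -1.22, H1-4 at -0.73 and H1-5 at -0.60, and all 6 were below vehicle. Among H2B genes, H2BC12L was at -1.02, H2BC6 at -0.80, H2BC14 at -0.72 and H2BC12 at -0.53. H2AC17 was at -0.65 and H2AC4 at -0.53. H4C7, at 0.56, and H2BC21, at 0.44, were the highest. At 2-fold, 2 were lower, against 2.18% of all genes, and 0 higher, against 3.94%. By probe set, 2 of 13 with a suffix and 5 of 38 without were 1.5-fold lower, against 13.5% and 10.5% of all probe sets. H2BC5 was at -0.13, a direction that quantile normalisation of the arrays turned to 0.01. The same scaling put H2BC21 at 0.85 and H4C7 at 0.69, both then past 1.5-fold higher. Both comparisons use the same vehicle array, and the direct comparison is their difference, so the 3 are not independent.

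Each treated array was also set against the reference level of the deposit. On the ERα17p array 7 clustered genes were then at least 1.5-fold below the reference (15.6%), against 0.632% of all genes: H2AC6 (-1.15), H1-2 (-0.95), H2BC9 (-0.92), H2BC6 (-0.87), H2BC12L (-0.81), H2BC12 (-0.79) and H2BC5 (-0.63). On the estradiol array 0 were, against 0.516% of all genes. The arrays behind the reference are unknown and may include these 3. Values of exactly 0 made up 7.08%, 8.14% and 8.54% of all probe sets on the vehicle, estradiol and ERα17p arrays. The reference is therefore not treated as an independent baseline.

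Variant genes held some of the largest histone differences from vehicle, and these were the ones read highest on the vehicle array. H1-10, a linker histone variant made through the cell cycle, read 1.46, 0.00 and -0.62 with vehicle, estradiol and ERα17p, differences of -1.46 and -2.08 from vehicle. It was the variant gene past 1.5-fold between the treated arrays (-0.62). H3-3A, which encodes the replacement histone H3.3, read 1.29, -0.35 and -0.03, differences of -1.64 and -1.32. H2AX, whose phosphorylated form marks DNA breaks, was at -1.41 and -1.34 and differed by -0.17 between the treated arrays. With H1-10, H2AX and H3-3A, 3 of 16 variant genes were lower in each comparison with vehicle (18.8%), against 8.42% of all genes with estradiol and 8.82% with ERα17p. H1-9P was the 1 of 16 that was higher, with ERα17p (6.25%, against 9.56% of all genes). On the treated arrays H2AX read -0.03 and -0.18. After quantile normalisation the differences from vehicle were -0.93 and -1.86 for H1-10, -0.90 and -0.93 for H2AX, and -1.22 and -0.86 for H3-3A, all still past 1.5-fold.

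Probe sets of the same variant gene did not always agree. For H2AX, 3 of 4 probe sets lay between -1.45 and -1.38 with estradiol and between -1.65 and -1.17 with ERα17p, and the remaining one was at 0.04 and -0.33. H3-3A shares 8 more probe sets with H3-3B, the other H3.3 gene. Their medians were -0.03 and -0.02, and 1 of them was past 1.5-fold, at -1.44 and -0.91. MACROH2A1, a variant linked to silent chromatin, had a median of -0.48 and -0.42 over 7 probe sets that ran from -1.25 to 0.27 with estradiol and from -1.01 to 0.24 with ERα17p. The low values of H2AX, H3-3A and MACROH2A1 therefore depend on the probe set read.

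The H2A.Z genes, whose products mark promoters, lay slightly above vehicle. H2AZ1 read -0.10, 0.01 and -0.01 with vehicle, estradiol and ERα17p. H2AZ2 was at 0.25 and 0.14, with 1 of its 4 probe sets at 1.24 and 1.07 and the others at 0.33 or below. H2AJ was at -0.21 and -0.29, with all 4 probe sets below 0 in both. MACROH2A2 was at -0.09 and 0.28, and 0.37 higher with ERα17p than with estradiol. Of the remaining variant symbols, the pseudogene H1-9P was at 0.25 and 0.66 and the X-linked H2AP at 0.03 and 0.41, while H1-7, H1-8, H2BW2, H3-4 and H1-10-AS1 lay between -0.23 and 0.13 in both comparisons with vehicle. H2BW4P, at 0.40 and 0.32, had probe sets at 0.82 and -0.02 with estradiol.

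**Figure D4:**
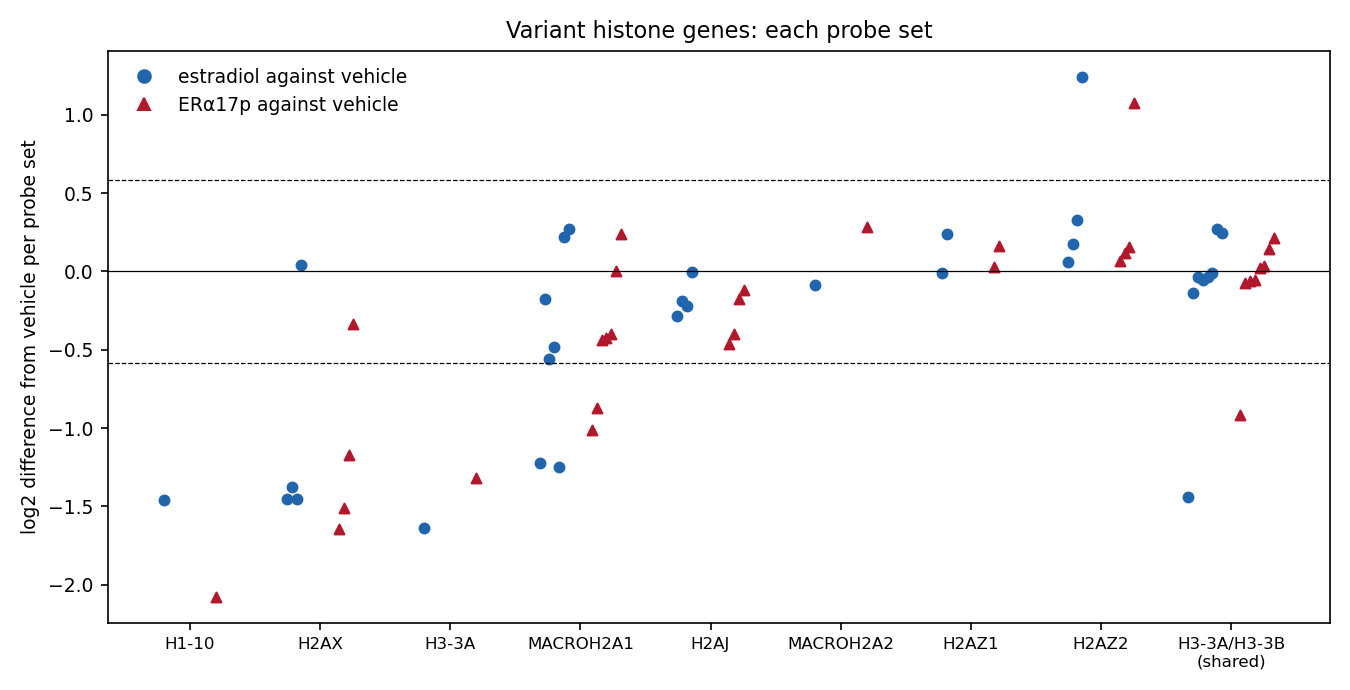
Log2 difference from vehicle (vertical axis) of each probe set of 8 variant histone genes, and of the 8 probe sets shared by H3-3A and H3-3B (horizontal axis), for estradiol (blue circles) and ERα17p (red triangles); dashed lines mark 1.5-fold. H2AX has 3 probe sets at -1.17 or below and 1 at 0.04 and -0.33, and 7 of the 8 shared H3.3 probe sets lie within 1.5-fold.

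Genes of the histone supply pathway were counted in the same way. In ERα17p against estradiol, 0 of 27 genes of S phase and DNA replication, 0 of 25 histone chaperones, 0 of 14 genes of histone transcription and 3' end processing and 0 of 10 genes of histone mRNA decay were past 1.5-fold in either direction. With 2.04% of all genes lower and 1.29% higher, counts of 0 in lists of this size are near the background. Their medians were between 0.00 and 0.13. The S phase genes with the largest differences there were CCNE1 (-0.37), CDT1 (0.36), MCM2 (-0.33) and CDC25A (0.31). Among chaperones, UBN1 (0.44), SUPT16H (0.41), ATRX (0.36) and CHAF1A (0.33) led, all higher with ERα17p, and NCBP1 (0.38) and LSM11 (0.33), a U7 protein, led the processing genes.

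Against vehicle, 8.42% of all genes were lower and 10.6% higher with estradiol, and 8.82% and 9.56% with ERα17p. Of 27 S phase genes, 10 were at least 1.5-fold lower with estradiol and 3 higher (median -0.42), and 11 were lower with ERα17p and 2 higher (median -0.31). The helicase subunit MCM5 was at -1.36 and -1.44 and the origin subunit ORC1 at -1.28 and -1.26, while the cyclin gene CCNE2 was at 1.08 and 1.36. Of 25 chaperones 6 and 7 were lower and 3 and 2 higher (medians -0.32 and -0.36), with the H3.3 chaperone genes DAXX at -1.10 and -1.10 and ATRX at 1.21 and 1.47. SSRP1, a subunit of the FACT complex, was at -0.93 and -0.81. The partner genes DAXX and ATRX thus lay on opposite sides of vehicle.

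Genes that make or degrade histone mRNA showed no common direction. SLBP was at 0.53 with estradiol and 0.58 with ERα17p against vehicle, differing by 0.05 between the treated arrays. NPAT was at -0.03 and 0.02. Of 14 genes for transcription and 3' end processing, 2 were lower in each comparison with vehicle, SYMPK (-1.35 and -1.17), the scaffold of the cleavage complex, and ZNF473 (-0.75 and -0.78), a U7-associated zinc finger protein. CSTF2 was at 0.82 and 0.53. Of the 10 decay genes 1 was lower and 1 higher with estradiol, and 0 lower and 1 higher with ERα17p. Of all genes 8.42% were lower and 10.6% higher with estradiol, and 8.82% and 9.56% with ERα17p. Among the decay genes the helicase UPF1 was at -0.73 and -0.50, XRN1 at 0.77 and 0.50, and TUT4, a uridyl transferase, at 0.56 and 0.76.

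**Figure D5:**
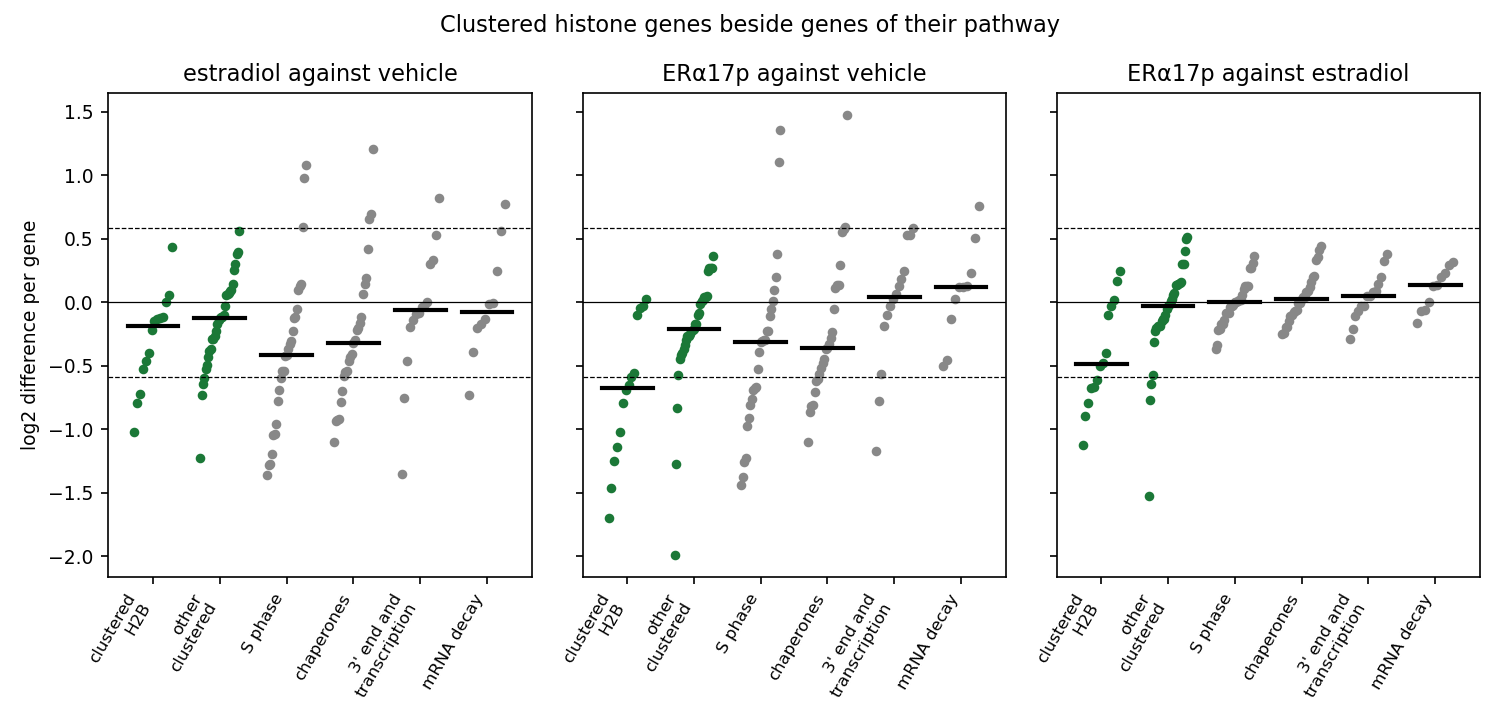
Log2 difference per gene (vertical axis) in the 3 comparisons for clustered H2B genes, other clustered histone genes, and genes of S phase, histone chaperones, histone transcription and 3' end processing, and histone mRNA decay (horizontal axis); points are genes, thick bars are medians and dashed lines mark 1.5-fold. In ERα17p against estradiol the H2B median is -0.49 and the 4 pathway lists have no gene past 1.5-fold.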

How the data were processed

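Total RNA from 3 groups was hybridised to 1 array each. The submitters' processing notes list RMA, a method that gives log2 values, without saying how it was run. The deposited log2 values had a median of 0 on every array; the scale is taken from RMA, and neither the log base nor the centring is described in the sources used here. Symbols came from the platform annotation; 1801 probe sets with several symbols and 11777 unnamed ones were not used for genes. All 61 members were found in RefSeq's gene table (GRCh38.p14).

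Differences were computed for all 19775 genes with pandas 2.3.3 in Python 3.11.15, and the grouping was tested on simulated data. The number of arrays limits the precision. Members and lists were chosen with earlier results of these data known. Named were the 10 clustered and 6 variant genes with the largest absolute difference per comparison, H2AX, H2AZ1, H2AZ2, H3-3A, H3-3B, H1-10, MACROH2A1, MACROH2A2, SLBP and NPAT, and up to 4 genes per list; other members were named to account for the class, after their values were seen, and 1 gene of this naming rule is not reported here. Alternatives concerned probe sets, scaling, class, members, baseline and fold. Markers of mesenchymal-like lines (5 measured) had medians of 0.35 and 0.58 against vehicle.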

Additional observations from a re-analysis of the deposited data

How the results depend on the processing

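No paired analysis was possible because each group had 1 array. Without probe sets ending in _s_at or _x_at, clustered genes at least 1.5-fold lower fell to 6 of 35 for ERα17p against vehicle (8.63% of all genes) and to 2 of 35 for ERα17p against estradiol (2.37% of all genes). Variant genes lower were then 0 of 13 in each comparison, and their median with estradiol moved to 0.031; H2AX, H3-3A and H1-10 have no other probe sets. Against the reference level, clustered genes lower numbered 0 with estradiol and 7 with ERα17p, variant genes 0 and 1, and the variant median with estradiol was 0.0057. At 2-fold, clustered genes lower were 2, 7 and 2 for estradiol and ERα17p against vehicle and ERα17p against estradiol, and variant genes 0 in the last. Without H1-10, the member farthest from the median, 0 variant genes were lower in the last comparison. Quantile normalisation gave 12 clustered genes lower there, against 4.55% of all genes. The mean of probe sets, probe sets with several histone symbols, centring on the median gene and another class rule kept every median's direction, and every count within 1.5 times. With 1 array per group and centred values, neither precision nor signal over background is known.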
